A study of Mus musculus with 2 samples.

Results

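Leukocyte integrins are described here through 7 genes (Itgb2, Itgal, Itgam, Itgax, Itga4, Itgb7 and Itgae) of 32285 in the count matrix, followed across 6 kinds of immune cell in the mouse aorta. The members were chosen by name, as the integrin chains that are largely restricted to blood cells. Their unique molecular identifiers (UMIs, each a counted RNA molecule) were summed in droplet barcodes with at least 1500 UMIs and at most 20% mitochondrial UMIs that carried 3 or more distinct markers of a macrophage, monocyte, neutrophil, dendritic cell, T cell or NK cell, and none of the 7 is such a marker. Levels are given as CPM, the UMIs of a gene scaled to the total of its gate, and they come from 3' tags that are not divided by transcript length.

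The study ran droplet single-cell RNA sequencing on aortic cells from ApoE-/- mice aged 20 weeks, with 1 sample labelled HFD and 1 labelled MSC_ITGB3. The series text presents these as HFD-fed mice without and with MSC_ITGB3 treatment, so both groups share the loss of apolipoprotein E, a genotype prone to plaques. The sources used here do not give the number of animals per sample, their sex or the dose. The counts form library 1 and library 2, told apart by the ending of the barcode, and no source ties a library to a sample; the libraries are therefore set side by side as 2 measurements, and HFD was not compared with MSC_ITGB3.

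Integrins are cell-surface receptors made of an alpha and a beta chain that bind ligands on other cells or in the matrix. The beta chain encoded by Itgb2 (CD18) pairs with the alpha chains of Itgal (CD11a), Itgam (CD11b) and Itgax (CD11c), and the resulting receptors bind ICAM proteins, complement fragments and fibrinogen during the arrest, migration and phagocytic work of white cells. The alpha chain of Itga4 (CD49d) pairs with the chain of Itgb1 to bind VCAM1 and fibronectin or with that of Itgb7 to bind MAdCAM1, and the alpha chain of Itgae (CD103) pairs with that of Itgb7 to bind E-cadherin. In the atherosclerotic aorta these receptors are known for bringing monocytes and lymphocytes through an activated endothelium.

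The 3 alpha chains that pair with Itgb2 lie on chromosome 7 of GRCm38 in the GENCODE vM21 annotation, Itgal at 127296260 to 127335138, Itgam at 128062640 to 128118491 and Itgax at 128129547 to 128150657. Itgam ends 11056 bases before Itgax starts, while 727502 bases separate Itgal from Itgam. Itgb2 is on chromosome 10 at 77530252 to 77565708, Itga4 on chromosome 2 at 79255426 to 79333123, Itgae on chromosome 11 at 73090583 to 73147446, and Itgb7, the only member on the minus strand, on chromosome 15 at 102215995 to 102231944. Gene models overlap Itgam (Gm49368, same strand), Itga4 (Cerkl, opposite strand) and Itgae (Haspin, opposite strand). The effect of these overlaps on the counts was not tested.

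The 250 bases before the start of transcription were found in the RefSeq promoter table (GRCm38.p6) for 4 of the 7 members, and they are shown because the levels of Itgam and Itgax, neighbours on the chromosome, differ between neutrophils and dendritic cells. Capitals mark the core letters of PU.1 sites (GAGGAA, or TTCCTC on the opposite strand), a factor of myeloid cells, and of RUNX sites (TGTGGT, or ACCACA on the opposite strand), factors of blood cells in general. The windows are chr7:128062390-128062639 for Itgam, chr7:128129300-128129549 for Itgax and chr2:79255176-79255425 for Itga4, all on the plus strand, and chr15:102231936-102232185 on the minus strand for Itgb7, each read 5' to 3' along the gene.
Itgam: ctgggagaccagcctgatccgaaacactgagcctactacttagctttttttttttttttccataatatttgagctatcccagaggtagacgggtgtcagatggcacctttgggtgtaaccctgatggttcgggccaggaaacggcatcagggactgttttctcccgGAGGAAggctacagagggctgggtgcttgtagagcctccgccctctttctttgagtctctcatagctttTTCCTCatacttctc
Itgax: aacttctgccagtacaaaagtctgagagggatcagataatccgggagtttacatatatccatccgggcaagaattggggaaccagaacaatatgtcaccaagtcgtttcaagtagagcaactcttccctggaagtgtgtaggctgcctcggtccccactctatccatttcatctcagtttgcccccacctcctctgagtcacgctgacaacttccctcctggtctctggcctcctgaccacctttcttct
Itga4: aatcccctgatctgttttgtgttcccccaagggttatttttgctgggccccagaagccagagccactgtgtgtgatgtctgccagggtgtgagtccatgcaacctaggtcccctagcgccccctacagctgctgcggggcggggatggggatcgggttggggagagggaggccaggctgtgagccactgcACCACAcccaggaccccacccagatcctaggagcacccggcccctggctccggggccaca
Itgb7: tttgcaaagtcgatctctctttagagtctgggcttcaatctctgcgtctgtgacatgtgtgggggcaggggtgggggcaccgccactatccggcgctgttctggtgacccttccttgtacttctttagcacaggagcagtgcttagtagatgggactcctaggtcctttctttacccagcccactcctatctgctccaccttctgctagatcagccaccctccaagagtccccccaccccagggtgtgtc
The Itgam window held the PU.1 core at -84 on the gene's strand and at -15 on the opposite strand, counted from the start of transcription. The Itga4 window held the RUNX core at -60 on the opposite strand, and the Itgax and Itgb7 windows held neither set of letters. By comparison, 7639 (23.3%) of 32851 windows of this length held the PU.1 core and 4614 (14%) held the RUNX core, and no match in the 4 windows overlapped another. A match is a description of the letters and not of a bound site.

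The libraries held 110257209 and 124266676 UMIs, and 11852 and 17366 barcodes passed the limits with median depths of 3230 and 2439 UMIs; values given in pairs are in the order library 1, library 2. The 6 leukocyte gates took 1699 and 1816 barcodes, of which 1001 and 1285 were in the macrophage gate, 258 and 261 in the T cell gate, 254 and 140 in the neutrophil gate, 103 and 92 in the monocyte gate, 63 and 28 in the dendritic cell gate and 20 and 10 in the NK cell gate. A list of 8 genes of all leukocytes, none used for gating, summed to 2639 to 5165 CPM in these gates against 20.7 to 216 CPM in the smooth muscle, fibroblast and endothelial gates, which serve as the reference. Fibroblast markers summed to 2030 to 10050 CPM in the leukocyte gates, highest in the neutrophil gate (7626 and 10050 CPM) against 26950 and 27920 CPM in the fibroblast gate itself, and their part in the levels below was not tested. The monocyte gate is the least separate, since 54 (52.4%) and 33 (35.9%) of its barcodes also carried 3 markers of another leukocyte, most often the macrophage, and in the NK cell gate 8 and 2 barcodes also passed the T cell count. Bracketed ranges are exact 95% intervals, Poisson for levels and ratios and Clopper-Pearson for shares. They cover counting error only, because each library is 1 measurement without replicates, and no p-value was computed. Where a gate or set had 0 UMIs, the level said to be allowed is 3 UMIs scaled to its total. That value is lower than the upper end of the exact interval.

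All 7 members were at least 4.43-fold higher in the 6 leukocyte gates together than in the 3 reference gates of the same library. Itgax had the highest ratios, 106-fold (69.5 to 169.6) and 106-fold (51.2 to 265), and Itgae the lowest, 4.43-fold (2.47 to 8.17) and 11.5-fold (2.83 to 101.1). Itgb2 stood at 82.8-fold and 49.9-fold, Itgam at 60.05-fold and 22.4-fold, Itgal at 41.1-fold and 33.3-fold, Itga4 at 14.5-fold and 19.01-fold, and Itgb7 at 17.2-fold and 13-fold. Among all genes with at least 20 UMIs, 20.9% and 19.9% were 1.5-fold or more higher in the leukocyte gates, and 34.4% and 29% were 1.5-fold or more higher in the reference gates. In library 1, 100 of the 139 reference UMIs of Itga4 were in smooth muscle barcodes, where it stood at 12.6 CPM (10.3 to 15.4) against 3.54 CPM (1.3 to 7.71) in library 2.

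**Figure D1:**
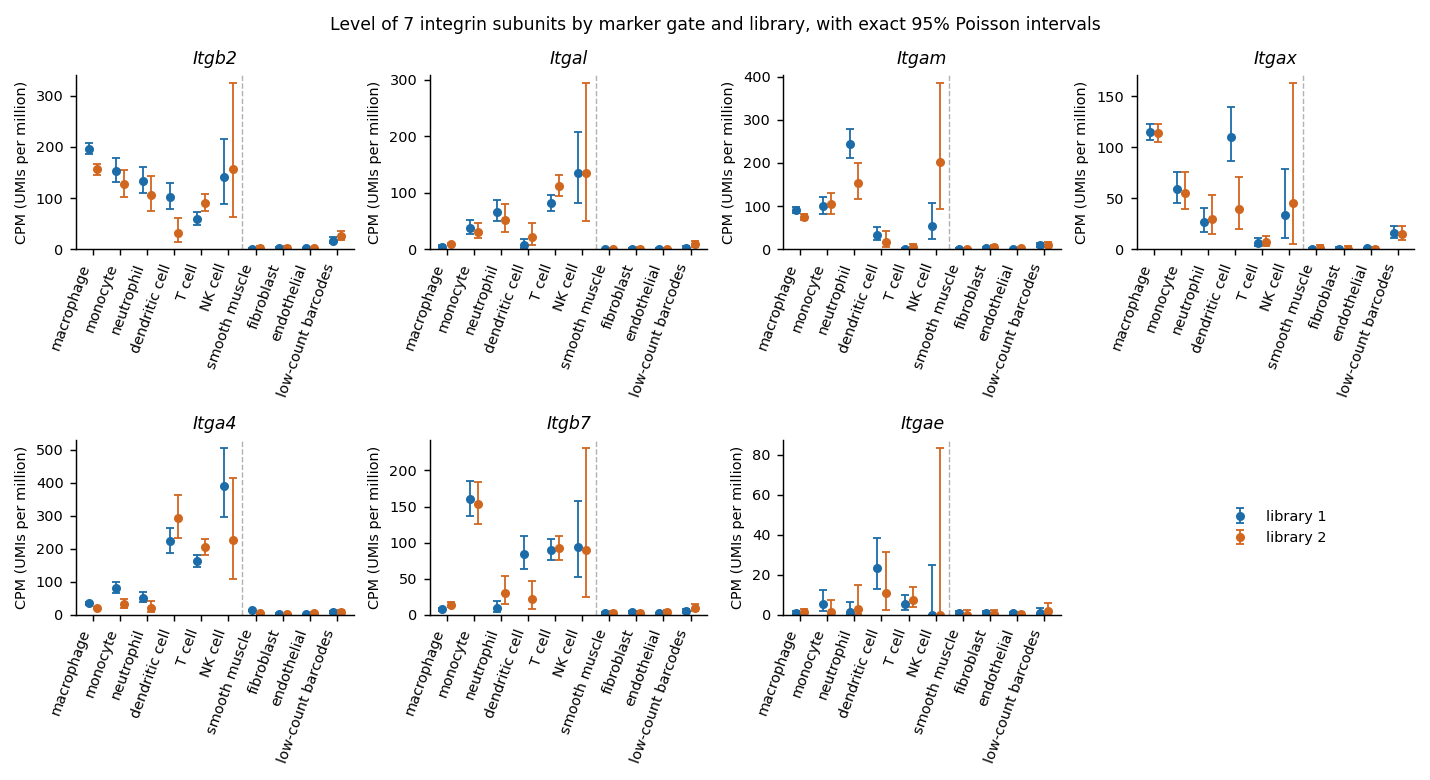
Level of each member (vertical axis, CPM, a separate scale per gene) in 6 leukocyte gates, 3 reference gates right of the dashed line and low-count barcodes of 10 to 100 UMIs, for library 1 (blue) and library 2 (orange), with exact 95% Poisson intervals. Itgam peaks in neutrophils of library 1, Itgb7 in monocytes, Itga4 in dendritic, T and NK cells, and the reference gates lie near 0 for every member.

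Itgb2, the beta chain shared by the CD11 receptors, was higher in every leukocyte gate than in the reference gates. Its level in low-count barcodes was 17.2 CPM (12.2 to 23.5) in library 1 and 25.96 CPM (18.6 to 35.4) in library 2, and the latter interval overlaps that of the dendritic cell gate of library 2. In macrophages it stood at 196 CPM (186 to 207) in library 1 and 156 CPM (146 to 167) in library 2. Monocytes held 154 CPM (131 to 179) and 127 CPM (103 to 156), neutrophils 134 CPM (110.3 to 161) and 105 CPM (74.8 to 144), and T cells 59.4 CPM (48.5 to 72.02) and 89.7 CPM (74.4 to 107). Dendritic cells held 103 CPM (79.3 to 130.5) and 32.2 CPM (14.7 to 61.2), the latter from 9 UMIs. NK cells held 142 CPM (87.6 to 216) and 158 CPM (63.5 to 325), from 21 and 7 UMIs. In library 1 the macrophage level was 1.28-fold (1.09 to 1.51) above the monocyte level and the dendritic cell level 1.73-fold above the T cell level, while monocytes, NK cells and neutrophils, neighbours in that order, did not separate from each other. In library 2 the step from T cells down to dendritic cells, 2.78-fold, was the only one between neighbours whose interval excluded 1. The lowest gate was therefore the T cell in library 1 and the dendritic cell in library 2.

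The share of barcodes with an Itgb2 UMI was 37.3% (34.3 to 40.3) and 26.5% (24.1 to 28.96) in macrophages, at median depths of 2819 and 2360 UMIs. Endothelial barcodes, which should lack this chain, had 2.23% and 1.32% at median depths of 5424 and 2565 UMIs. After each barcode was thinned to 1500 UMIs, the macrophage share was 17.98% and 12.8%. Most macrophage barcodes had no Itgb2 UMI at their own depth, so an absent UMI does not mark a cell without the chain.

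Itgal encodes the alpha chain of LFA-1, the receptor by which lymphocytes hold on to ICAM proteins, and it was highest in NK and T cells. T cells held 81.3 CPM (68.4 to 95.9) and 111 CPM (94.2 to 131), and NK cells 135 CPM (82.3 to 208) and 135 CPM (49.7 to 295). Neutrophils held 66.9 CPM (50.6 to 86.6) and 51.3 CPM (30.9 to 80.1), monocytes 37.9 and 31.2 CPM, and dendritic cells 7.77 and 21.5 CPM from 5 and 6 UMIs. The macrophage gate had the lowest level of both libraries, 4.88 CPM (3.402 to 6.79) and 9.12 CPM (6.79 to 12). The T cell level was 16.6-fold (11.4 to 24.8) and 12.2-fold (8.82 to 17.1) above the macrophage level. Low-count barcodes, taken as free RNA, held Itgal at 2.21 CPM (0.717 to 5.15) and 9.09 CPM (4.97 to 15.2), and these intervals overlap those of macrophages. NK and T cells did not separate in either library, and T cells exceeded neutrophils in library 2, 2.17-fold (1.34 to 3.71), but not beyond counting error in library 1, 1.22-fold (0.888 to 1.68).

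Itgam encodes the alpha chain of Mac-1, the complement receptor of phagocytes, and its level was highest in neutrophils of library 1, at 244 CPM (212 to 279.5), with 154 CPM (116 to 199) in library 2. Monocytes held 99.8 CPM (81.9 to 121) and 104 CPM (82.4 to 130.5), and macrophages 91.3 CPM (84.4 to 98.6) and 75.3 CPM (68.3 to 82.9). The neutrophil level was 2.67-fold (2.28 to 3.13) and 2.04-fold (1.52 to 2.698) above that of macrophages, in both libraries outside counting error. When 2 markers sufficed for the neutrophil gate, its level in library 2 was 92.2 CPM. Dendritic cells held 34.2 CPM, with 9 of 22 UMIs in 1 barcode, and 17.9 CPM from 5 UMIs. T cells were lowest at 1.15 and 5.98 CPM, from 2 and 8 UMIs, below the 9.72 and 10.4 CPM of low-count barcodes. The NK cell level was 53.9 CPM from 8 UMIs in library 1, and in library 2 its 203 CPM came from 9 UMIs of 1 barcode, so no order can be read from it.

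Itgax encodes the alpha chain by which dendritic cells are usually recognised, and aortic macrophages held about as much of it in library 1 and more in library 2. The macrophage level was 115 CPM (107 to 123) and 114 CPM (105 to 123), and the dendritic cell level 110.3 CPM (86.2 to 139) and 39.4 CPM (19.7 to 70.4). Monocytes held 59.2 CPM (45.6 to 75.6) and 55.6 CPM (39.9 to 75.4), neutrophils 26.98 and 29.7 CPM, and T cells 5.76 and 6.72 CPM against 16.3 and 14.9 CPM in low-count barcodes. NK cells held 33.7 and 45.1 CPM from 5 and 2 UMIs. Macrophages and dendritic cells of library 1 did not separate, dendritic cells there exceeded monocytes 1.86-fold, and in library 2 macrophages exceeded monocytes 2.04-fold. Without barcodes that passed more than 1 leukocyte count, the monocyte level of library 2 was 19.9 CPM, and after thinning the macrophage levels were 70.6 and 73.2 CPM.

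The mix of the alpha chains that pair with Itgb2 differed between gates, as counted by UMIs of the 3 genes together. Macrophage UMIs were 54.4% and 57.4% Itgax, 43.2% and 38.03% Itgam and 2.32% and 4.61% Itgal. Neutrophil UMIs were 72.2% and 65.5% Itgam with 7.99% and 12.6% Itgax, and monocytes lay between, at 50.7% and 54.6% Itgam and 30.05% and 29.1% Itgax. T cells were almost wholly Itgal, at 92.2% and 89.8%. Dendritic cells were 72.4% Itgax in library 1 and 50% in library 2, the latter over 22 UMIs, and NK cells 60.6% and 35.3% Itgal over 33 and 17 UMIs. Each gate's leading alpha chain was the same in both libraries except in NK cells, where the 9 Itgam UMIs of 1 barcode led in library 2. Tags of different genes are captured with different efficiency, so these percentages compare gates and not the amounts of the receptors.

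**Figure D2:**
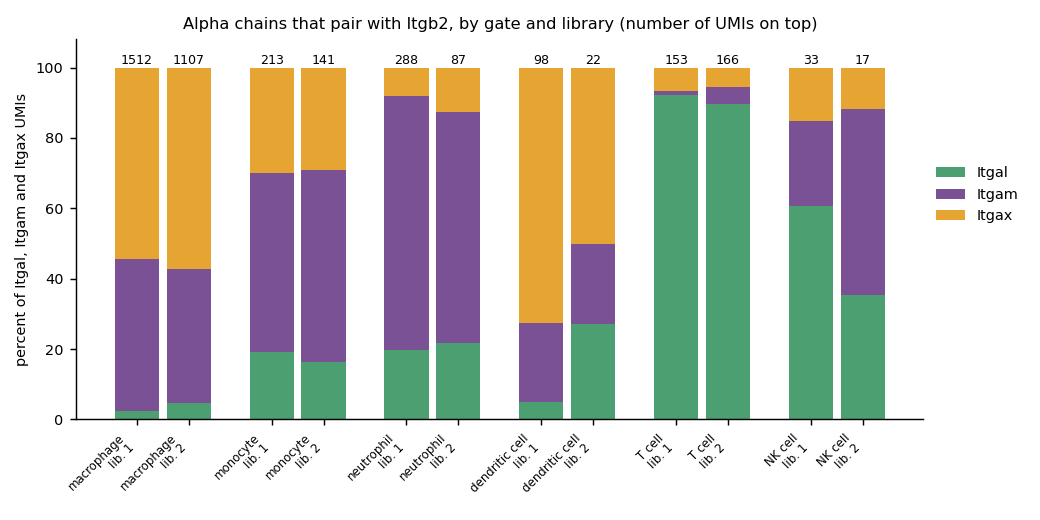
Percent of Itgal, Itgam and Itgax UMIs taken by each gene (stacked bars from 0 to 100) in each leukocyte gate, library 1 left and library 2 right, with the number of UMIs on top. Itgal fills about 90% of the T cell bars, Itgam leads in neutrophils and monocytes, and Itgax leads in macrophages and dendritic cells.

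Itga4, the alpha chain that binds VCAM1 on activated endothelium, was highest in NK cells, dendritic cells and T cells and lowest in macrophages in both libraries. NK cells held 391 CPM (297 to 505) and 226 CPM (108.2 to 415), dendritic cells 222 CPM (187 to 262) and 294 CPM (233 to 364), and T cells 162 CPM (144 to 182) and 204 CPM (180.5 to 229.7). Monocytes held 81.4 CPM (65.2 to 100.2) and 32.5 CPM (20.8 to 48.4), neutrophils 51.6 CPM (37.5 to 69.3) and 21.6 CPM (9.32 to 42.5), and macrophages 34.6 CPM (30.4 to 39.2) and 19.9 CPM (16.3 to 23.9). In library 1 every step of that order had an interval above 1, from 1.37-fold to 1.99-fold, and in library 2 only the step from T cells down to monocytes did, at 6.27-fold (4.13 to 9.96). Single barcodes carried a sizeable part of these counts. In library 1, 1 barcode held 30 of the 143 dendritic cell UMIs, 1 held 13 of the 58 NK cell UMIs and 1 held 7 of the 44 neutrophil UMIs. The counting intervals of the steps do not cover this. Of the 82 dendritic cell UMIs of library 2, 24 were in 1 barcode, and 6 of the 10 NK cell UMIs were. The share of T cell barcodes with an Itga4 UMI was 44.2% and 37.6% at median depths of 4714 and 3664 UMIs, against 1.75% and 0.203% of fibroblast barcodes at 3933 and 2835.

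Itgb7, the beta chain of the gut-homing alpha4beta7 receptor and of CD103, was highest in the monocyte gate, in library 2 only while barcodes that passed more than 1 leukocyte count were kept. The monocyte level was 159.9 CPM (137 to 186) and 153 CPM (126 to 184), which was 22.04-fold (16.1 to 30.7) and 10.98-fold (8.15 to 14.8) above the macrophage level of 7.26 CPM (5.42 to 9.52) and 13.95 CPM (11.03 to 17.4). T cells held 89.4 CPM (75.8 to 105) and 91.9 CPM (76.4 to 109.7), nearly the same in both libraries, and NK cells 94.4 and 90.2 CPM from 14 and 4 UMIs. In library 1 the monocyte level was 1.695-fold (0.983 to 3.165) above the NK cell level, so these 2 gates did not separate. Dendritic cells held 83.9 CPM (63.04 to 109.5) and 21.5 CPM (7.88 to 46.7), the latter from 6 UMIs, and neutrophils 9.39 and 29.7 CPM from 8 and 11 UMIs. An Itgb7 UMI was in 60.2% (50.1 to 69.7) and 45.6% (35.2 to 56.4) of monocyte barcodes, at median depths of 9547 and 4834 UMIs, and in 2.09% and 1.402% of smooth muscle barcodes at 9990 and 6176. Monocytes exceeded T cells 1.79-fold (1.43 to 2.24) and 1.67-fold (1.28 to 2.17). Without those barcodes the monocyte level was 118 and 96.9 CPM and the T cell level 100.9 and 101.8 CPM, so that the order of the 2 gates turned in library 2.

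Among UMIs of the beta chains that can pair with Itga4, Itgb7 made up 39.6% (34.97 to 44.4) and 33.6% (28.6 to 38.96) in monocytes, with Itgb1 as the rest. In T cells the Itgb7 share was 18.6% and 16.8%, in dendritic cells 24.4% and 6%, and in NK cells 18.2% and 11.8%. Macrophages had 2.13% (1.595 to 2.78) and 3.695% (2.93 to 4.59), and neutrophils 2.78% and 6.96%. Itgb1, the widely expressed beta chain, itself stood between 244 and 677 CPM in the 6 leukocyte gates.

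Itgae, the CD103 alpha chain of cells lodged in epithelia and of some dendritic cells, was rare everywhere, with 36 and 22 UMIs in all leukocyte gates together. Dendritic cells were highest, at 23.3 CPM (13.05 to 38.4) and 10.7 CPM (2.21 to 31.4), from 15 UMIs (6 of them in 1 barcode) and 3 UMIs. T cells held 5.19 CPM (2.37 to 9.85) and 7.47 CPM (3.58 to 13.7), from 9 and 10 UMIs. Monocytes held 5.55 and 1.36 CPM (5 of 6 UMIs of library 1 in 1 barcode), neutrophils 1.17 and 2.698 CPM from 1 UMI each, and macrophages 0.698 and 1.25 CPM, near the 0.883 and 1.95 CPM of low-count barcodes. NK cells had 0 UMIs in both libraries, which allows up to 20.2 and 67.7 CPM. Only the dendritic cell level of library 1 exceeded its neighbour beyond counting error, 4.202-fold.

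Within the T cell gate, the levels of Itga4 and Itgb7 differed in opposite directions between barcodes with a CD8 marker and barcodes with a gamma-delta or type 17 marker. Barcodes with a UMI of Cd8a or Cd8b1 and none of the gamma-delta or type 17 markers (Trdc, Tcrg-C1, Il17a, Il23r) numbered 132 and 80, those with the latter and no CD8 UMI 22 and 61, and those with neither 97 and 119. Median depths of these sets were 4934 and 3837 UMIs, 4916 and 3737, and 4246 and 3516. The sets are ranges drawn by single UMIs and not types, and 7 and 1 barcodes had both kinds of marker.

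Itga4 stood at 194.5 CPM (168 to 224.5) and 373 CPM (320.4 to 431) in the CD8 set, at 144 CPM (115 to 179) and 165 CPM (132 to 203) in barcodes with neither marker, and at 10.1 CPM (0.255 to 56.1) and 3.21 CPM (0.0813 to 17.9) in the gamma-delta or type 17 set, where each library had 1 UMI. Itgb7 ran the other way, at 59.3 CPM (44.9 to 76.8) and 10.3 CPM (3.34 to 24.03) in the CD8 set and 423 CPM (305 to 571) and 241 CPM (189 to 302) in the gamma-delta or type 17 set. The intervals of the CD8 and gamma-delta or type 17 sets did not overlap for either gene in either library. Barcodes with neither marker lay between, with 90.3 CPM (67.4 to 118) and 72.9 CPM (51.9 to 99.7) of Itgb7. Of the 22 and 61 barcodes of the gamma-delta or type 17 set, 16 and 33 had Itgb7 without Itga4, 1 and 0 had Itga4 without Itgb7, and 0 and 1 had both. In the CD8 set 51 and 53 had Itga4 alone, 16 and 1 had Itgb7 alone, and 22 and 4 had both.

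The barcodes of the gamma-delta or type 17 set had passed the T cell gate. The markers of that gate include Cd3g and also Trdc and Tcrg-C1, by which the set itself was drawn. Passing the gate is therefore not independent of the set, and the genes below are given as a description. Trdc, the delta chain constant region, was found in 20 of 22 and 44 of 61 barcodes, and Cd3g, a subunit of the T cell receptor complex, in 22 and 51. Il23r, the receptor for a cytokine that sustains type 17 cells, was found in 16 and 36, and Il17a in 11 and 19. All 10 Itgae UMIs of the T cell gate in library 2, and 4 of the 9 in library 1, were in this set, which gave 40.2 CPM (10.97 to 103) in library 1 and 32.1 CPM (15.4 to 59.04) in library 2. In the CD8 set Itgae had 3 UMIs in library 1 and 0 in library 2, which allows up to 6.18 CPM.

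**Figure D3:**
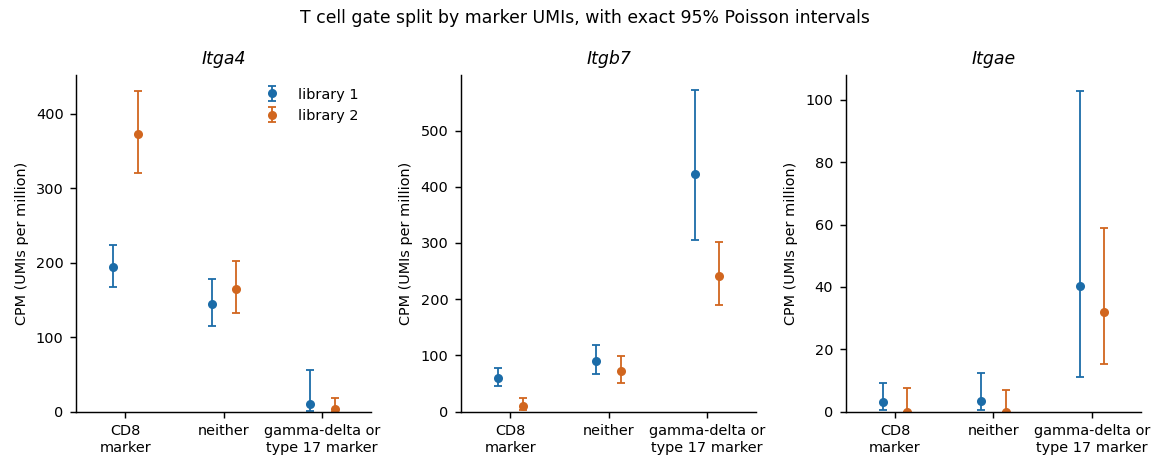
Level of Itga4, Itgb7 and Itgae (vertical axes, CPM) in T cell barcodes with a CD8 marker, with neither kind of marker and with a gamma-delta or type 17 marker, for both libraries, with exact 95% Poisson intervals. Itga4 declines and Itgb7 climbs from left to right, and the Itgae level is highest on the right.

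Contrasts with all other T cell barcodes took every barcode with a marker, those with both kinds included. The 29 and 62 barcodes with any gamma-delta or type 17 marker held Itgb7 3.29-fold (2.28 to 4.69) and 5.76-fold (3.94 to 8.53) higher, and Itga4 at 0.318 (0.157 to 0.578) and 0.0477 (0.0129 to 0.124) of the other level. With 2 markers required, the Itgb7 ratio of library 1 was 5.204. Among all genes with at least 20 UMIs, 19.9% and 15.1% were 1.5-fold or more above and 29.1% and 20.1% were as far below in this contrast. The 139 and 81 barcodes with any CD8 marker held Itga4 1.496-fold (1.15 to 1.96) and 3.56-fold (2.75 to 4.63) higher, just under and well over the 1.5-fold used for calls, and Itgb7 at 0.414 and 0.136 of the other level. In that contrast 14.8% and 16.5% of genes lay 1.5-fold or more above and 11.5% and 20.4% as far below. With both CD8 genes required, the Itgb7 ratio of library 1 was 0.681, no longer past 1.5-fold. Itgb2 was 2.25-fold (1.54 to 3.29) higher in these barcodes of library 2 and 1.14-fold (0.749 to 1.75) in library 1, and Itgal differed by at most 1.23-fold.

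Within the dendritic cell gate, the Itgae UMIs (15 and 3) lay in only 5 and 2 barcodes. All of these had a UMI of a type 1 dendritic cell marker (Xcr1, Clec9a, Irf8 or Cadm1). Barcodes with such a marker made up 38 of 63 and 18 of 28, and the level there was 34.6 and 13.3 CPM. No share over all genes was taken for this contrast. With 2 such markers required, 14 and 6 barcodes remained, holding all 15 UMIs in library 1 and 2 of 3 in library 2. Itga4 in contrast went with the maturation markers Ccr7, Fscn1, Ccl22 and Il4i1, which label dendritic cells on their way to lymph nodes. Barcodes with such a UMI (52 and 23) held 252 and 396 CPM, and the other 11 and 5 held 43.7 and 13.4 CPM, from 4 and 1 UMIs, at median depths of 10040 and 9398 UMIs against 7784 and 10360. The ratio was 5.76 (2.201 to 21.4) and 29.6 (5.17 to 1185), where 31.2% and 30.9% of all genes with at least 20 UMIs were 1.5-fold or more above. With 2 maturation markers required the ratio of library 2 was 14.7. The maturation markers, and Xcr1 and Clec9a of the type 1 list, are also markers of the dendritic cell gate. Passing the gate is therefore not independent of these sets, and the contrasts are given as a description. Single barcodes held 30 of the 143 and 24 of the 82 Itga4 UMIs of the gate. Itgb2 went the other way in library 1, at 88.8 against 186 CPM, with a ratio of 0.478 (0.2705 to 0.885), and library 2 held too few UMIs to place it (0.457, 0.0984 to 2.305). Dendritic cell levels rest on the gate more than others: when 2 markers sufficed, Itga4 stood at 71.2 and 87.2 CPM, Itgb2 at 34.9 and 9.09 CPM, Itgax at 38.3 and 10.9 CPM, Itgb7 at 30.5 and 8.18 CPM, and Itgae at 7.75 CPM in library 1. With 4 markers required, levels of library 2 rose by over 1.5-fold for Itgb7, from 21.5 to 51.15 CPM, and for Itgax, from 39.4 to 59.7 CPM.

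In macrophages the levels of Itgb2, Itgam and Itgax were higher in barcodes of greater depth. Itgb2 stood at 97.2 CPM in barcodes of 1500 to 3000 UMIs, 116 CPM at 3000 to 10000 and 244 CPM at 10000 or more in library 1, and at 88.2, 110.4 and 237 CPM in library 2. Itgam stood at 32.99, 91.4 and 105 CPM in library 1 and 47.6, 75.4 and 96.1 CPM in library 2, and Itgax at 60.6, 72.3 and 140.1 CPM and at 65.3, 89.9 and 165 CPM. Each of these 3 genes thus had its lowest level in the shallowest macrophages and its highest in the deepest, in both libraries. The bins held 537, 268 and 196 barcodes in library 1 and 850, 319 and 116 in library 2. The other 4 members did not share one order. Itga4 stood at 18.7, 41.3 and 36.5 CPM in library 1 and 12.6, 23.1 and 23.2 CPM in library 2. Itgal stood at 8.03, 2.95 and 4.69 CPM in library 1, from 9, 4 and 22 UMIs with overlapping intervals. In library 2 Itgal stood at 5.73, 9.92 and 11.15 CPM, from 10, 15 and 26 UMIs, again with overlapping intervals. Itgb7 stood at 3.57, 11.8 and 6.83 CPM in library 1 and at 11.5, 7.93 and 19.7 CPM in library 2. Itgae stood at 1.78, 0.738 and 0.427 CPM in library 1, from 1 or 2 UMIs a bin. In library 2 Itgae stood at 2.29, 1.32 and 0.429 CPM, from 4, 2 and 1 UMIs. The part of free RNA in the shallow bins was not tested.

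Itgam was higher in macrophages with a UMI of a resident macrophage marker (Lyve1, F13a1, Cd163 or Folr2) than in the others. The 235 and 206 barcodes with such a UMI held 156 and 116 CPM, and the 766 and 1079 without held 59.3 and 60.1 CPM, a ratio of 2.63 (2.25 to 3.08) and 1.93 (1.58 to 2.35). In this contrast 7.75% and 9.03% of all genes with at least 20 UMIs were 1.5-fold or more above. Barcodes with the marker were deeper (medians of 4190 and 3202 UMIs against 2635 and 2289), and within the 3 depth bins the ratio was 2.14, 2.86 and 2.34 in library 1 and 1.48, 1.805 and 1.71 in library 2. Itgam therefore stayed higher in barcodes with the marker at each depth, with intervals above 1 in the middle and deepest bins. Itgb2 had ratios of 1.16 and 1.51 in the same contrast, but within bins they ran from 0.869 to 1.07 and from 0.724 to 1.27. Itgax had ratios of 0.764 and 1.17, and within bins it was lower in barcodes with the marker in library 1 (0.489, 0.254 and 0.757) and, in library 2, lower at 3000 to 10000 UMIs (0.363, 0.183 to 0.658) and close to 1 elsewhere (0.941 and 1.04).

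Itgax was higher in macrophages with a UMI of Cd72 or of the MHC class II genes H2-Aa and H2-Ab1, which present antigen. The 672 and 991 barcodes with such a UMI held 128 and 122 CPM and the 329 and 294 others 49.1 and 60.5 CPM, a ratio of 2.61 (2.01 to 3.46) and 2.01 (1.48 to 2.79). In this contrast 14.9% and 18.2% of all genes with at least 20 UMIs were 1.5-fold or more above. The marked barcodes were again deeper, at medians of 3550 and 2495 UMIs against 2246 and 2062. Within bins the Itgax ratio was 1.96, 3.999 and 1.76 in library 1, all with intervals above 1, and 1.02, 2.92 and 1.35 in library 2, where only the middle interval excluded 1 and the deepest bin had 3 barcodes without the markers. Itgam had ratios of 1.77 and 1.42 in this contrast, but within bins 1.197, 1.105 and 1.67 in library 1 and 1.55, 0.889 and 0.577 in library 2, where only the deepest bin of library 1 had an interval that excluded 1.

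**Figure D4:**
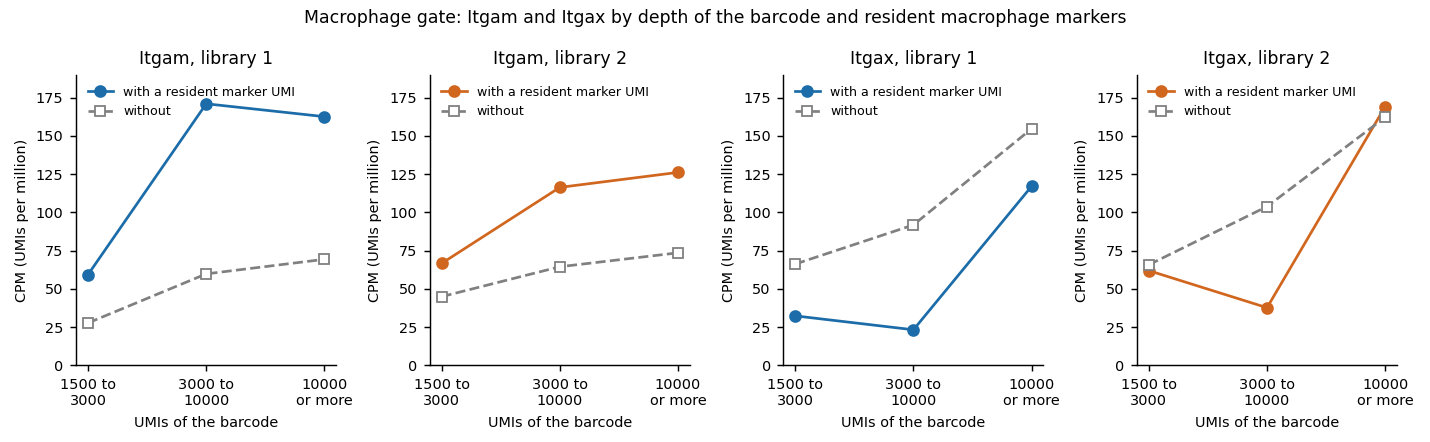
Level of Itgam (left pair of panels) and Itgax (right pair) in macrophage barcodes of each library (vertical axis, CPM), in 3 bins of UMIs per barcode, with a resident macrophage marker UMI (filled circles) and without (open squares). Itgam lies higher with the marker in every bin, while Itgax lies lower with it in library 1 and in the middle bin of library 2.

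Library 2 was then set beside library 1 gene by gene, with a call at 1.5-fold or more for genes with at least 20 UMIs in both libraries together. In macrophages 2 of 6 members tested were called above, Itgb7 at 1.92 (1.34 to 2.79) and Itgal at 1.87 (1.19 to 2.96), and 1 below, Itga4 at 0.574 (0.454 to 0.7205), where 17% of all genes tested were above and 6.09% below. Itgb2 at 0.796 (0.7305 to 0.866), Itgam at 0.825 and Itgax at 0.989 were within 1.5-fold. The Itgal and Itgb7 levels lay near those of low-count barcodes, which were also higher in library 2 (9.09 against 2.21 CPM for Itgal, 9.09 against 4.42 CPM for Itgb7). Fibroblast markers in the macrophage gate were higher in library 2 too, at 2632 and 5134 CPM summed, and the part of free RNA and of other cells was not tested. Thinning turned the Itgal ratio to 0.584 and a looser limit on free RNA took the Itgb7 ratio to 1.47, under the threshold, whereas the Itga4 ratio stayed between 0.5203 and 0.622 over 12 alternatives.

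Itga4 was also lower in library 2 in monocytes, at 0.3999 (0.243 to 0.634), the only call among 6 members there, where 18.3% of genes were above and 8.92% below. After thinning that ratio was 1.28 over 15 UMIs. The makeup of the monocyte gate differed between the libraries. Chil3 stood at 638 and 247 CPM and F10 at 223 and 137 CPM, while Ly6c2 went the other way, at 323 and 435 CPM. Siglech, a marker of plasmacytoid dendritic cells, had 22 and 0 UMIs there. The dendritic cell count was passed by 15 of 103 and 7 of 92 monocyte barcodes, and the part of these differences was not tested. In neutrophils 2 of 5 members were called below, Itga4 at 0.418 (0.17 to 0.898) and Itgam at 0.6303 (0.462 to 0.849), where 16.3% of genes were above and 13.5% below. The Itgam call was lost among barcodes of 3000 or more UMIs (0.825), with 4 markers required (0.679) and after thinning (0.668). The gate's own neutrophil markers were also lower in library 2, at 49070 and 29720 CPM summed, as was the list of all leukocytes, at 3819 and 2639 CPM, while smooth muscle markers stood at 3169 and 8173 CPM. Their part in both calls was not tested. Itga4 was thus called below in library 2 in macrophages, monocytes and neutrophils and also in NK cells, and was within 1.5-fold in T cells (1.26) and dendritic cells (1.32).

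In dendritic cells 4 of 5 members were called below in library 2, where 18.7% of genes were above and 16.1% below. Itgb7 stood at 0.256 (0.08997 to 0.594), Itgb2 at 0.314 (0.138 to 0.633), Itgax at 0.357 (0.1705 to 0.678) and Itgam at 0.524 (0.155 to 1.42). These rest on 28 barcodes in library 2, of which single barcodes held 33.3% of the Itgb7 and Itgb2 UMIs and 36.4% of the Itgax UMIs. The first 3 stayed called under each alternative that gave a value, Itgb7 between 0.231 and 0.478, and the Itgam call was lost with a looser limit on free RNA (0.878). The makeup of the gate also differed between the libraries. Ccr7 stood at 693 and 1314 CPM, Fscn1 at 127 and 573 CPM, and Siglech, a marker of plasmacytoid dendritic cells, had 22 and 0 UMIs. The list of all leukocytes summed to 4479 and 3350 CPM there and smooth muscle markers to 1063 and 4202 CPM, and the part of these differences was not tested.

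In T cells Itgb2 was the only member called, at 1.51 (1.15 to 1.98) among 4 tested, where 13.3% of genes were above and 10.3% below. This call sat on the threshold: 7 of 12 alternatives ended it, with values from 1.32 to 1.498, among them scaling by trimmed mean of M values (TMM) at 1.44. Macrophage markers in the T cell gate summed to 74.95 and 243.6 CPM and smooth muscle markers to 2159 and 6465 CPM, and their part was not tested. Itgal at 1.37, Itga4 at 1.26 and Itgb7 at 1.03 were within 1.5-fold. In NK cells Itga4 was the only call among 3, at 0.577 (0.263 to 1.14), where 22.8% of genes were above and 23.4% below, and 4 of 13 alternatives ended it. NK cell markers in that gate summed to 9693 and 5143 CPM and T cell markers to 627 and 1714 CPM, and their part was not tested. TMM scaling shifted the ratio of all genes by -0.07 (T cells) to -0.25 (NK cells) on the log2 scale.

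**Figure D5:**
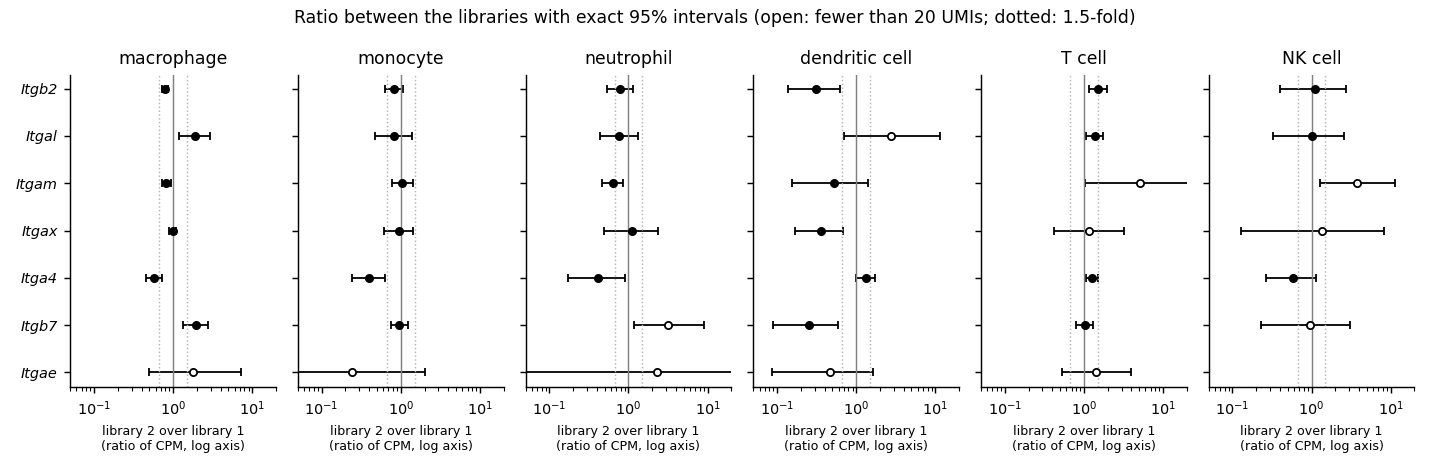
Ratio of the level in library 2 to that in library 1 for each member (rows) in each leukocyte gate (panels), on a log axis with exact 95% intervals; open circles mark members with fewer than 20 UMIs, dotted lines 1.5-fold, and intervals longer than the axis are cut at its edge. Itga4 lies left of 1 in macrophages, monocytes and neutrophils, and Itgb2, Itgax and Itgb7 lie left of 1 in dendritic cells.

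The partner chains, ligands and activating proteins of these integrins were read from lists of 6, 12 and 18 genes. Of the 18 activation genes, 15 were 1.5-fold or more higher in the leukocyte gates in both libraries and 0 and 1 in the reference gates. Of all genes tested, 20.9% and 19.9% were so in the leukocyte gates and 34.4% and 29% in the reference gates. The median log2 ratio of the activation genes was 2.81 and 2.39 against -0.12 and -0.10 for all genes. Dock2, a guanine exchange factor of blood cells, stood at 172 and 192 CPM in macrophages and 458 and 502 CPM in T cells against 1.01 and 1.77 CPM in smooth muscle. Fyb, an adaptor between the T cell receptor and integrins, stood at 351 and 246 CPM in T cells and 262 and 258 CPM in macrophages. Cytip, a protein that loosens LFA-1 contacts, was highest in dendritic cells, at 1041 and 1260 CPM against 78.3 and 55.3 CPM in macrophages. Rap1b (301 and 332 CPM in macrophages) and Rap1a (254 and 221 CPM), the small GTPases that switch integrins on, were also present in the reference gates, and Tln1, the talin that binds integrin tails, was higher in smooth muscle (414 and 459.9 CPM) than in macrophages (234 and 201 CPM).

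Of the 12 ligand genes, 10 were tested, and 8 and 7 were 1.5-fold or more higher in the reference gates against 1 in the leukocyte gates. Of all genes tested, 34.4% and 29% were so in the reference gates and 20.9% and 19.9% in the leukocyte gates. The median log2 ratio of the ligand genes was -1.36 and -0.82. Vcam1, the counter-receptor of the Itga4 chain, stood at 882 and 661 CPM in endothelial barcodes and 270.3 and 236 CPM in macrophages. Icam1, the counter-receptor of the Itgb2 receptors, stood at 434 and 252 CPM in endothelial and 329 and 373 CPM in fibroblast barcodes, and F11r, a junction protein bound by LFA-1, at 316 and 256 CPM in endothelial barcodes. C3, the complement protein whose fragment binds Mac-1, stood at 3906 and 3162 CPM in fibroblasts, and Fn1, the fibronectin gene, at 2348 and 1128 CPM there and 1607 and 2327 CPM in endothelium. Thy1, a surface protein of T cells and fibroblasts, stood at 237 and 194 CPM in T cells and 174 and 129 CPM in fibroblasts. Madcam1, the ligand of the receptor of Itga4 and Itgb7, had 0 UMIs in the 6 leukocyte gates and in the reference gates 1 UMI each in smooth muscle and endothelial barcodes of library 1 and in fibroblast barcodes of library 2. Fga, a fibrinogen chain, had 0 UMIs in the 6 leukocyte and 3 reference gates, which in endothelial barcodes allows up to 0.209 and 0.667 CPM.

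Of the 6 partner genes 5 were tested, with 2 higher in leukocytes and 3 and 2 in the reference gates (median log2 ratio -0.60 and -0.21). The shares over all genes were 20.9% and 19.9% higher in leukocytes and 34.4% and 29% higher in the reference gates. Itgb1 stood at 333 and 364 CPM in macrophages and 1240 and 1302 CPM in smooth muscle. Itgav, the vitronectin receptor chain, stood at 258 and 176 CPM in macrophages, Itga5, the fibronectin receptor chain, at 139 and 160.1 CPM and Itga6, a laminin receptor chain, at 58.1 and 52.4 CPM. Itgb3, the partner of Itgav, was low in macrophages (8.93 and 9.84 CPM) and higher in smooth muscle (41.03 and 59.6 CPM), and Itgad, an alpha chain that also pairs with Itgb2, had at most 7 UMIs in any gate. Between the libraries, macrophages had 0 partner genes called of 5, and ligands 4 above (Fn1, C3, Thy1 and Jam3) and 1 below (Icam2) of 9. Activation genes had 1 above (Rasgrp1) and 1 below (Syk) of 18. In this gate 17% of all genes tested were above and 6.09% below. The ligands Fn1 and C3 that were higher in macrophages of library 2 were highest in fibroblast or endothelial barcodes. Fibroblast markers in the macrophage gate were likewise higher in library 2, as given above, and their part was not tested.

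The genes most like each member in their levels over the 6 leukocyte and 3 reference gates of both libraries were found by Pearson correlation of log2(CPM + 5) over 18 points and 6700 genes, as a description, since the points share libraries and the reference gates, where members are near 0. Itgb2 was closest to Ncf4 (r = 0.98), a subunit of the phagocyte oxidase, Ccl4 (0.98), a chemokine, and Arhgap25 (0.96). Itgam was closest to Lrrfip2 (0.97), Gsap (0.94) and Fcer1g (0.92), the common gamma chain of Fc receptors, and Itgax to Fcer1g (0.96), Tyrobp (0.95), an adaptor of myeloid receptors, and Lat2 (0.94). Itgal was closest to Gm26740 (0.96), Atp11b (0.95) and Acap1 (0.95), Itga4 to Stk4 (0.96), St8sia4 (0.95) and Sub1 (0.95), and Itgb7 to Gpr171 (0.92), Fam133b (0.90) and Lrmp (0.90). Itgae, which did not reach the 50 CPM set for this comparison, was closest to Ramp3 (0.91), Irf4 (0.89) and H2-Oa (0.89). Among the members, Itgb2 was closest to Itgax (0.88) and Itgam (0.84), Itga4 to Itgal (0.80) and Itgb7 (0.79), and Itgae was at most 0.57 with any other member.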

How the data were processed

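The authors deposited 1 unfiltered matrix of raw UMI counts, not normalized, and per the file headers Cell Ranger 6.0.1 wrote it. Seurat, bcl2fastq and the build mm10 appear in the submitters' processing notes. The sources used here give no counting settings or annotation. Per the labels' protocols, libraries used the Chromium 3' v3 chemistry.

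Barcodes with 1500 or more UMIs and at most 20% mitochondrial UMIs were gated on 15 lists of 6 to 13 markers. A marker with a UMI counted when its share of a barcode's UMIs exceeded 5 times its share in low-count barcodes (10 to 100 UMIs) of the same library; 3 markers were needed, the class with the largest share of its list was taken, and ties were left out. In all, 6616 and 13185 passing barcodes were in no gate. No doublet caller was run; doublets were addressed only by leaving out barcodes that passed more than 1 leukocyte count. Of passing barcodes, 84 sequences occurred in both libraries, 2 of them leukocyte-gated.

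UMIs were summed per gate and library. With 1 library per sample and no map between them, no test was possible. Named genes were all 7 members, the 3 most-alike genes of each, and up to 6 genes with the highest leukocyte level from each pathway list; Madcam1, Fga, Jam3, Icam2, Rasgrp1 and Syk of those lists, and the gate and state markers described, were chosen after their values were seen. The members and lists were chosen with earlier results of these data known. Alternatives varied the UMI and mitochondrial limits, markers needed, free-RNA limit, scaling and depth (each barcode thinned to 1500 UMIs). One marker of the gamma-delta or type 17 list was not used and is not reported here. The ratio and interval code was tested on simulated UMI sums with known folds, and the gating was not tested on simulated data. Software was Python 3.11.15, numpy 2.4.6, scipy 1.17.1, pandas 2.3.3 and edgeR 4.0.16 (TMM factors only) in R 4.3.3.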

Additional observations from a re-analysis of the deposited data

How the results depend on the processing

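Alternatives changed 1 choice at a time. No paired analysis was possible because each group has 1 sample and no source ties a library to a sample. Of 84 levels, those resting on 5 or more UMIs moved by over 1.5-fold in 20 cases when 2 gate markers sufficed, 10 without barcodes passing more than 1 leukocyte count, 7 after thinning, 7 with markers above 2 times the low-count share, 3 with 4 markers, and 1 at 3000 or more UMIs. The Itgb2 ratio of library 2 to library 1 in macrophages was 0.871 at 3000 or more UMIs, 0.726 with 2 markers, 0.722 with TMM and 0.9197 with markers above 10 times the low-count share, an alternative chosen after seeing the data; in neutrophils it was 1.15 at 3000 or more UMIs, and in NK cells 8 after thinning, from 5 UMIs. Directions turned after thinning for Itgal in macrophages (0.584) and Itga4 in monocytes (1.28). With 2 state markers required, also chosen after seeing the data, ratios turned for naive T cells (Itgb7 0.9397 in library 1; Itgal 0.981 and Itga4 0.763 in library 2) and, in library 2, for Itga4 in type 1 dendritic cells (0.423), Itgal (1.03) and Itga4 (0.129) in type 2 dendritic cells, Itgb2 in resident macrophages (0.753) and Itgam in patrolling monocytes (1.09). The cause of each change was not tested. Gates of 28 or fewer barcodes limit the dendritic and NK cell values.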

Other observations

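Outside the 6 leukocyte gates, the gate for type 2 innate lymphoid cells (13 and 22 barcodes), lymphocytes that answer tissue alarms, held Itga4 at 126 CPM (62.9 to 225) and 64.8 CPM (31.1 to 119) and Itgb7 at 126 CPM (62.9 to 225) and 45.4 CPM (18.2 to 93.5). Both chains were thus seen in the same small gate, whereas Itgam had 0 UMIs there in both libraries, which allows up to 34.4 and 19.4 CPM. Smooth muscle markers in that gate summed to 7239 and 15780 CPM, fibroblast markers to 2589 and 9100 CPM and the list of all leukocytes to 2268 and 1497 CPM. A non-leukocyte count was also passed by 0 and 4 of its barcodes and a second leukocyte count by 2 and 6. Their part was not tested. The B cell gate (27 and 7 barcodes) had 0 Itgb2 UMIs, which allows up to 25.02 and 77.6 CPM.

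Chondrocyte barcodes of library 2 held Itgb7 at 14.2 CPM (10.8 to 18.3), with a UMI in 34 of 550 barcodes, against 5.08 CPM (2.84 to 8.38) in library 1. The level of low-count barcodes was 9.09 CPM (4.97 to 15.2) in library 2 and 4.42 CPM (2.12 to 8.12) in library 1, and the intervals overlap those of chondrocyte barcodes. In smooth muscle barcodes of library 1, 100 Itga4 UMIs lay in 56 of 812 barcodes (6.897%), and in library 2 6 UMIs lay in 5 of 214 (2.34%).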
